A study of Mus musculus with 20 samples.

Results

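The regions described here are stretches of chromatin that were open in sorted cardiac fibroblasts in every library of the series and that lie far from annotated genes. Peaks of the 10 ATAC-seq lists were merged wherever they overlapped by 1 bp or more on chromosomes 1 to 19 and X. A merged region was a member if each of the 10 lists had a peak in it and if it lay more than 10 kb from every gene span of the deposited count table. This gave 9001 members out of 143246 merged regions and out of 38922 regions with a peak in all 10 lists, called always-open regions below. The members were chosen by the presence of a peak, a measured value, in all 10 libraries. Regions that closed in any group were therefore left out, and the presence of these peaks is not a result.

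The libraries came from mouse hearts 3 days, 7 days, 2 weeks and 4 weeks after myocardial infarction (MI) and from uninjured hearts, with 2 libraries per group for ATAC-seq and 2 for RNA-seq. In all groups, uninjured included, tamoxifen (75 mg/kg body weight on each of 5 days) had activated MerCreMer, a tamoxifen-dependent Cre recombinase, so that cells of the Tcf21 lineage carried eGFP. Tcf21 is a fibroblast transcription factor gene in the heart, and cells keep the mark after they stop using it. eGFP-positive cells were sorted against eGFP-negative wild-type cells, and RNA was taken from 10000 of them. Whether both libraries of a group are from different animals is not stated in the labels, so each p-value reflects library-to-library spread that could be technical.

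Each list had between 63882 and 107774 peaks on these chromosomes, and 8.90% to 14.9% of them fell in members. The number of reads behind the peaks is not given in the sources used here, so no counting interval can be set on a peak. RNA libraries held 16397224 to 21044044 expected counts. The 8 fibroblast markers summed to 61871 and 63297 CPM (the count of a gene per library of a standard size) in uninjured libraries, 37970 and 23539 at day 3, 43017 and 52002 at day 7, 42282 and 31640 at week 2 and 67112 and 64019 at week 4. The labelled cell type was thus high in its markers in every library, with the lowest sum at day 3, when 3 of the 8 were higher (collagen genes) and 4 lower. Macrophage markers summed to 59.2 and 52.7 CPM in uninjured libraries, 569 and 1008 at day 3, 1542 and 2788 at day 7, 436 and 437 at week 2 and 137 and 202 at week 4. Every library after MI was thus above both uninjured libraries in this sum. In bulk libraries like these, fewer cells of a type and less RNA or chromatin signal per cell cannot be told apart. Other markers moved as well, and their part in the results was not tested. The 5 erythroid markers summed to 1204 and 142 CPM at day 3, against 4131 and 5982 in uninjured libraries, and to 800 to 3716 later. The 8 endothelial markers summed to 168 and 114 CPM at day 3 (4 lower) and 472 and 567 at day 7 (4 higher and 1 lower), against 468 and 364 in uninjured libraries. The 6 markers of pericytes and smooth muscle summed to 141 and 52.9 CPM at day 3 (2 lower), against 860 and 377 in uninjured libraries, and to 316 to 1121 later. The 8 markers of cardiomyocytes summed to 42.1 to 151 CPM over all libraries, the 4 of Schwann cells to 0.277 to 15.4 and the 5 lymphoid ones to 0.0536 to 3.31.

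ATAC-seq reads out open chromatin through a transposase that inserts adapters where DNA is not wrapped tightly in nucleosomes. Open stretches at gene starts are mostly promoters, whereas open stretches far from genes are mostly enhancers, insulators bound by CTCF, or promoters of unannotated and noncoding transcripts. Enhancers carry short motifs for transcription factors such as AP-1, TEAD and RUNX proteins and can act on a gene over long distances, not always on the nearest one. Promoters of widely used genes are often rich in CG dinucleotides and in motifs for SP/KLF, ETS and NRF1 factors.

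Some members hold the start of a noncoding transcript that is in RefSeq and not in the count table, and 5 of these starts are shown because their regions moved in different ways after MI. They were chosen after their values were seen. Each line gives 300 bases from RefSeq (GRCm38.p6), from 250 before to 50 after the start, on the transcript's strand, and capitals mark matches to the motifs of AP-1, CTCF, ETS, SP/KLF and NRF1.
LOC115487176: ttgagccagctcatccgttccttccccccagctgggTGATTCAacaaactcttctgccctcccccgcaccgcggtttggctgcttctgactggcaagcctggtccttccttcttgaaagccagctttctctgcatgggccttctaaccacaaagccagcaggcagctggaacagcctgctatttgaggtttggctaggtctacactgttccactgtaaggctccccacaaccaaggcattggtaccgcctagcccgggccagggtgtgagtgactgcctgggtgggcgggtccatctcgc
Gm32011: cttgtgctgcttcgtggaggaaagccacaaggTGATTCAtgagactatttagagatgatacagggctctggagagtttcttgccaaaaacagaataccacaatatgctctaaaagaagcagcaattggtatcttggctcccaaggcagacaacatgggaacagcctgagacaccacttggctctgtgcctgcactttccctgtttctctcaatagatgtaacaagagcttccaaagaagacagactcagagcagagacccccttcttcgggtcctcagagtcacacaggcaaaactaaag
Gm36169: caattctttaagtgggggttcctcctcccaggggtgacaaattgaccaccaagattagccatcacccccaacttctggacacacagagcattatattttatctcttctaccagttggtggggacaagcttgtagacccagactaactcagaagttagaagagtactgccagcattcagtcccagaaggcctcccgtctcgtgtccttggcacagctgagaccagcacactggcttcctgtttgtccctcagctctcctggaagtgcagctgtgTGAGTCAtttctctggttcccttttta
Gm30782: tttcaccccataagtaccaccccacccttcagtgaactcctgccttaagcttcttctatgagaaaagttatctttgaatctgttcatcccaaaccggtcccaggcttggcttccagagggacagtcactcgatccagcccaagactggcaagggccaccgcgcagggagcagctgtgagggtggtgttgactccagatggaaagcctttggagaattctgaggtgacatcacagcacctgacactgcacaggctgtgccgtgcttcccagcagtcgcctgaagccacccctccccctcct
Snhg5: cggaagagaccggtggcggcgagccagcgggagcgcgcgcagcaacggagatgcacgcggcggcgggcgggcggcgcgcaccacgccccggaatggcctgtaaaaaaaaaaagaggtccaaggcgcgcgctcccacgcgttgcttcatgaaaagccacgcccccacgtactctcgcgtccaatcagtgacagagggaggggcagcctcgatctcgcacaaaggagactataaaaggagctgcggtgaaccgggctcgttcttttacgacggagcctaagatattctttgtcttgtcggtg
The first pair lay at chr9:61013180-61013479 (plus strand) and chr15:31091970-31092269 (plus strand). Both had TGATTCA, a match to the motif TGANTCA used here for AP-1. They lay in members that ranked higher at every time after MI than in both uninjured libraries. The start of Gm36169, at chr16:90677415-90677714 (minus strand), had TGAGTCA, also a match to TGANTCA, and lay in a member that ranked lower at every time. Gm30782, at chr6:72254879-72255178 (minus strand), had none of the marked motifs, and its member was also lower at every time. Snhg5, at chr9:88522848-88523147 (minus strand), is the host gene of small nucleolar RNAs, and its member stayed near the top in every library. The motif TGANTCA, which takes any middle letter, thus had a match in members that ranked higher and in one that ranked lower. Starts this few, chosen after their values were seen, tie no letter to a direction.

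A second set of sequences inside members is that of microRNAs, short RNAs that bind messenger RNAs through their seed (bases 2 to 8, in capitals) and lower their output. Of 1005 RefSeq hairpins on the chromosomes used, 26 lay wholly inside 17 members. None of them is a row of the count table, so their RNA was not measured here. Those shown are the known families whose hairpin regions are described further on, ordered by shared seed.
let-7b-5p: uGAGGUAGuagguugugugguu
let-7c-5p: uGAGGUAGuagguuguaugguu
miR-17-5p: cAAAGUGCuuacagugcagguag
miR-20a-5p: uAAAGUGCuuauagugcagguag
miR-19a-3p: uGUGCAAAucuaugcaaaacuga
miR-19b-3p: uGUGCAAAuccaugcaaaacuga
miR-29a-3p: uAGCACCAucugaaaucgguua
miR-29b-3p: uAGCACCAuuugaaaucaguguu
miR-193a-3p: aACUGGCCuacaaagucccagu
miR-193b-3p: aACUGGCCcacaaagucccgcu
miR-148a-3p: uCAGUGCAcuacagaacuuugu
miR-100-5p: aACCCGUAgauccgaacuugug
miR-125b-5p: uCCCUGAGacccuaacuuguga
Members of a pair share the seed: GAGGUAG in let-7, AAAGUGC in miR-17 and miR-20a, GUGCAAA in miR-19, AGCACCA in miR-29 and ACUGGCC in miR-193. The let-7 pair lies in 1 member and the miR-17, miR-19 and miR-20a hairpins in another, so their regions are not independent of each other.

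Members made up 22.5% of the 40077 merged regions more than 10 kb from genes, whereas 29.0% of the 103169 regions nearer to genes were always open. Another 2117 far regions missed 1 list, most often that of uninjured replicate 1 (639 regions) or of week 4 replicate 2 (439 regions). Their median height was 4.66 to 6.96 over the lists, and that of members 8.31 to 14.4. Height is the fold enrichment that the authors' peak caller gave at the highest peak of a region. The rule of a peak in every list itself favours higher regions, so this difference is not a result. Members were 519 to 36195 bp long, with a median of 2268 bp, and lay at a median of 47267 bp from the nearest gene span. Of all members, 7147 lay more than 20 kb from a gene, 4347 more than 50 kb, 2472 more than 100 kb, 207 more than 500 kb and 40 more than 1 Mb. On chromosome 13 members were 35.5% of the always-open regions and on chromosome X 33.7%, whereas on chromosome 19 they were 14.6%.

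Many members stood in runs. Another member lay within 10 kb of 3945 of them (43.8%), and 101 runs of 5 or more held 642 members. A run of 14 members spanned 120.8 kb of chromosome 15 between Wnt7b, which encodes a Wnt ligand, and Ppara, which encodes a nuclear receptor of fatty acid metabolism. It covers the noncoding gene Lncppara and the let-7 hairpins shown above. Another run of 14 members spanned 96.9 kb of chromosome 12 between Rad51b, a DNA repair gene, and Zfp36l1, which encodes a protein that promotes decay of messenger RNAs. A run of 12 members filled 91.5 kb of chromosome 2 between Rxra, which encodes a retinoid receptor, and Col5a1, which encodes a chain of type V collagen. Both longest members lay on chromosome 6 in Lncpint, a long noncoding RNA gene downstream of p53, and spanned 36195 bp with 77 peaks over the 10 lists and 29060 bp with 54 peaks. Merging at 1 bp joins neighbouring peaks, so such a region is a stretch of several open sites.

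The label of being far from genes held for the genes of the count table and less so for RefSeq. In RefSeq, 2631 members (29.2%) touched a gene, 1858 lay within 10 kb of one and 4512 (50.1%) lay farther away. For 2271 members the RefSeq gene was a long noncoding RNA and for 164 a protein-coding gene, whose RefSeq span was longer than that of the count table or which the table does not list by that symbol. Mir100hg, the host gene of miR-100 and miR-125b, held 14 members and Pvt1, a noncoding gene beside Myc, held 11. A member held a whole RefSeq promoter window in 570 cases (6.33%), with 708 windows of 597 genes.

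Members were lower and narrower than always-open regions near genes in every library. Their median fold enrichment divided by that of the 29921 always-open regions within 10 kb of a gene was 0.685 as a geometric mean over libraries, with a range of 0.644 to 0.746 (10 of 10 libraries below 1, exact two-sided sign-flip permutation test, p = 0.00195, the smallest it can give). The covered length divided in the same way was 0.761, with a range of 0.720 to 0.790 (10 of 10 libraries below 1, p = 0.00195 in the same exact test). Summits of members lay a little farther from the median summit of the 10 lists, by 6.9 ± 1.49 bp (SD, n = 10 libraries, 10 of 10 above 0, exact p = 0.00195).

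Set against single classes of near regions, members were lower than gene ends and not lower than the others. In single libraries the median enrichment of members was 11.2 and 11.8 in the uninjured libraries, 14.4 and 13.3 at day 3, 11.8 and 8.94 at day 7, 11.6 and 11.4 at week 2 and 9.31 and 8.31 at week 4. The 13255 always-open regions within 1 kb of an end of a gene span had medians of 25.6 to 39.8, above that of members in each library. Against the 13544 always-open regions inside genes and away from their ends, members were higher, with a ratio of 1.08 (0.985 to 1.13, 9 of 10 libraries above 1, exact two-sided sign-flip permutation test, p = 0.00391), and the exception was day 3 replicate 2. Against the 3122 regions 1 to 10 kb from a gene the ratio was 1.02 (0.9697 to 1.07) and missed the threshold (7 above 1 and 2 below, p = 0.0703 in the same exact test). The covered length of members was 0.912 of that inside genes (10 of 10 libraries below 1, exact p = 0.00195). The ratio of members to near regions was 0.644 to 0.746 after MI, against 0.679 and 0.687 in uninjured libraries, with no difference past the threshold (0.00478 on the log2 scale, exact two-sided permutation test of 8 against 2 libraries, 45 assignments, p = 0.911).

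**Figure D1:**
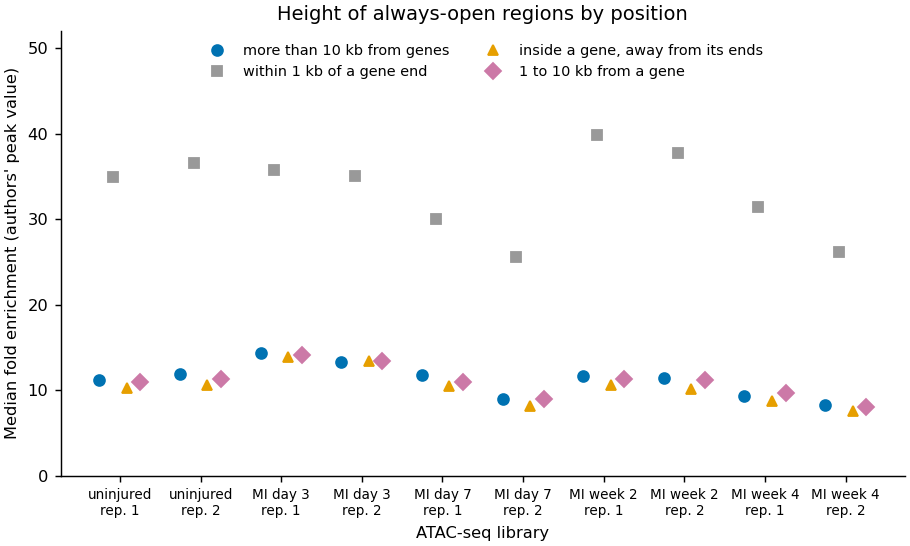
Median fold enrichment (the authors' peak value, y axis) of always-open regions in each ATAC-seq library (x axis), by position relative to genes, with 1 point per class and library. Members (blue circles, 8.31 to 14.4) lie beside the regions inside genes or 1 to 10 kb from them and below those within 1 kb of a gene end (grey squares, 25.6 to 39.8) in each of the 10 libraries.

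Heights spread widely among the members. To compare regions across libraries, each was given its percentile in height among the same 38922 always-open regions within a library, with equal heights sharing a percentile. The mean percentile of members over libraries ran from 1.82 to 100.0 with a median of 38.2. The top member lay at chr17:39842987-39848844 (mm10) over the ribosomal RNA pseudogene Rn18s-rs5, with fold enrichments of 488 to 1307. It ranked first in all 10 libraries. Reads from the many copies of ribosomal DNA can collect at such a locus, and how reads with several matches were handled is not given in the sources used here. A pair of members between 33.3 and 41.6 kb from Pdia4, which encodes a disulfide isomerase of the endoplasmic reticulum, also ranked near the top. The one at chr6:47753142-47754516 stood at 210 to 441 fold enrichment, and its summits lay within 2.8 bp of their median on average. Others among the highest were a 519 bp region 109 kb from Gm8797 (94.0 to 287.7 fold enrichment), a region 37.9 kb from the trafficking gene Rab2a and a region 32.6 kb from Foxk1, which encodes a forkhead factor. The 3 lowest members lay near Tmx1, Anxa4 and Svil and stayed low in every library, with percentiles of 0.143 to 4.16 for the one near Tmx1.

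Members that hold a whole promoter were higher than the others. The 570 members with a RefSeq promoter window had a median enrichment 1.35 times that of the 8431 members without one (10 of 10 libraries above 1, exact two-sided sign-flip permutation test, p = 0.00195). Their median percentile was 48.1 to 53.3 over the libraries, and that of the other members 36.0 to 40.5. A longer region holds a whole window more easily, and its height is that of its highest peak. Both sets were not matched in length, and the part of length in the ratio was not tested. Most did not have their summit on the start: the median distance was 312 bp, and 106 of the 570 (18.6%) lay within 100 bp.

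The letters in these promoters differed from those near genes. AP-1 (TGANTCA) matched 11.7% of the 708 promoters in members, 4.86% of 14613 promoters in always-open regions near genes and 7.85% of all 32619 RefSeq promoters. The E-box CAGCTG matched 24.2%, 15.4% and 16.4% of the same sets, TEAD (GGAATG) 19.4%, 12.1% and 14.6%, and RUNX (TGTGGT) 19.1%, 11.7% and 16.6%. Among the other motifs scanned, CEBP matched 16.2%, 7.87% and 10.9%, AGATAA 13.98%, 5.73% and 11.2%, and FOX 5.08%, 2.37% and 3.67%. The higher shares in members were thus not particular to AP-1, the E-box, TEAD and RUNX. STAT, with 7.34%, 6.61% and 8.34%, was most frequent in all promoters, and YY1 matched 0%, 1.39% and 0.635%. Motifs of CG-rich promoters went the other way, with SP/KLF (GGGGCGGGG) in 5.79%, 21.6% and 11.5%, ETS (CCGGAAGT) in 1.84%, 7.62% and 3.91% and NRF1 in 0.847%, 9.59% and 4.63%. CTCF matched 4.52%, 3.05% and 2.44%. Promoters in members had a median G+C content of 50.7% and 6 CG dinucleotides, those near genes 61.7% and 21, and all promoters 53% and 7. Both strands were read, AP-1 and the E-box read the same on both, and single windows can hold several motifs. These are descriptions of promoter windows, with no test, and cover a small share of the members.

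Over the members, libraries of different groups were less alike than libraries of the same group. The mean Spearman correlation of height between libraries over the 9001 members was 0.898 for the same group and 0.706 for different groups (exact one-sided permutation test over the 945 partitions of the libraries into pairs, p = 0.00106, the smallest it can give). Over near regions the values were 0.963 and 0.905, over regions at gene ends 0.966 and 0.934, over regions inside genes 0.913 and 0.778 and over those 1 to 10 kb away 0.919 and 0.791. Members that hold a RefSeq promoter stood at 0.946 and 0.851, and those without one at 0.894 and 0.694. The difference between the classes was not itself tested.

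The most alike pair was that of day 3 (0.938), and the pair least alike was day 7 replicate 2 with uninjured replicate 1 (0.444). Week 2 replicate 2 correlated at 0.889 with week 4 replicate 1 and at 0.884 with its own group, and the week 4 pair at 0.864, so libraries of these late groups were not separated. Without chromosome X the values for the same and different groups were 0.9003 and 0.711.

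**Figure D2:**
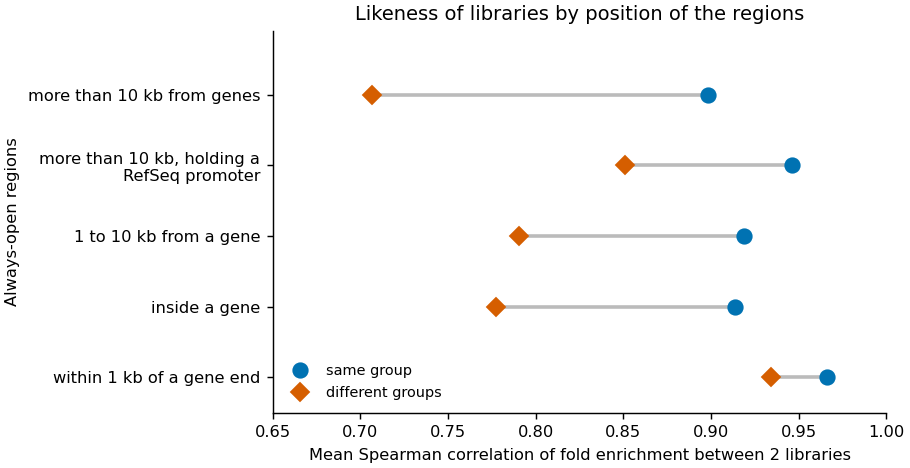
Mean Spearman correlation of fold enrichment between 2 libraries (x axis) for classes of always-open regions (y axis), for libraries of the same group (blue circles) and of different groups (orange diamonds). Of the 5 classes drawn, the gap is widest for members (0.898 and 0.706) and narrowest for regions at gene ends (0.966 and 0.934); members without a RefSeq promoter are not drawn and stood at 0.894 and 0.694.

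Although all members were open throughout, many changed rank after MI. A region was called up or down at a time where both libraries lay beyond both uninjured libraries and the means differed by 10 percentile points or more. This is a description with no p, since heights are the authors' values within each list. At day 3, 1790 members (19.9%) were up and 2434 (27.0%) down, where all always-open regions gave 18.8% up and 19.5% down. Day 7 had 2396 up (26.6%) and 2638 down (29.3%), against 19% and 20.4% of all always-open regions. Week 2 had 2057 up (22.9%) and 2343 down (26.03%), against 17.6% and 18% of all. Week 4 had 2012 up (22.4%) and 2241 down (24.9%), against 15.8% and 16.6% of all. Members were above this background in both directions at each time, most at day 7, and nearest to it for the up calls of day 3.

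Gene ends supplied the low end of that background. Of regions at gene ends, 12.7% were up and 9.30% down at day 3, 11.2% and 7.67% at day 7, 12.5% and 6.26% at week 2 and 7.64% and 5.80% at week 4. Regions inside genes were nearer to members, with 23.7% up and 23.4% down at day 3, 20.9% and 25.98% at day 7, 18.8% and 23.5% at week 2 and 18.6% and 21.4% at week 4. Members thus had the lower share of up calls at day 3 and the higher share in both directions at the 3 later times, with no test of the difference. No call at any time was made for 20.2% of members, 64.1% of gene ends, 26.02% of regions inside genes and 27.3% of those 1 to 10 kb away. Members up at all 4 times numbered 514 (5.71%, against 4.91% of all always-open regions and 6.53% of those inside genes), a share near the background. Those down at all 4 times numbered 979 (10.9%, against 6.63% of all and 8.68% of those inside genes). Another 529 were up at one time and down at another. The median range of percentile over the 10 libraries was 31.3 points for members and 13.3 for gene ends. Gene ends were higher than members in every library, as given above, and the part of rank position in these contrasts was not tested. The 4 comparisons share the uninjured libraries, so their counts are not independent.

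**Figure D3:**
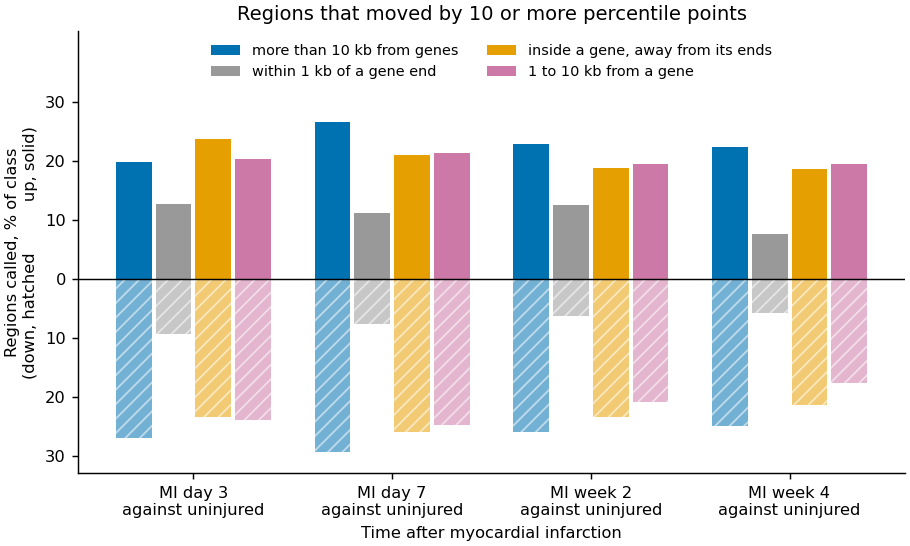
Share of always-open regions called up (solid, above 0) or down (hatched, below 0) at each time after MI against uninjured (x axis), in percent of the class (y axis), by position. Members (blue) reach 26.6% up and 29.3% down at day 7, and gene ends (grey) stay at or below 12.7% in each direction.

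The members named in this and the next 3 paragraphs were chosen for the largest shifts at given times. The time at which each stood highest or lowest is thus partly set by that choice. Several of the largest upward shifts were highest at day 3. The member at chr2:27833644-27837022, 49.4 kb from Col5a1 and inside the noncoding gene Gm39777, stood at percentiles 3.63 and 8.94 in uninjured libraries, 78.9 and 84.4 at day 3, 74.5 and 79.8 at day 7, 72.7 and 61.8 at week 2 and 56.0 and 57.5 at week 4. All 8 libraries after MI were above both uninjured ones, and day 3 and day 7, which overlapped, were above week 2 and week 4. The member at chr2:102942042-102946037, 40.4 kb from Cd44, which encodes a hyaluronan receptor, stood at 3.63 and 1.58 in uninjured libraries, 75.4 and 76.4 at day 3, 67.3 and 69.1 at day 7, 60.6 and 37.4 at week 2 and 31.5 and 28.0 at week 4. It was highest at day 3 and lower in every later library, without reaching the uninjured level. The member 25.7 kb from Pard3, a cell polarity gene, followed a like course, with 69.5 and 80.1 at day 3 and 15.3 and 28.0 at week 4, against 2.21 and 0.367 in uninjured libraries.

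Other members were highest later. The member at chr5:104406708-104408781, 26.3 kb from Spp1, which encodes osteopontin, stood at 3.63 and 3.62 in uninjured libraries, 38.8 and 32.0 at day 3, 59.6 and 53.8 at day 7, 59.6 and 44.99 at week 2 and 66.1 and 56.9 at week 4. Both day 3 libraries were above both uninjured libraries and below all later ones. The member 11.1 kb from Nrbf2, an autophagy gene, stood at 7.04 and 2.77 at day 3 and at 66.6 to 79.7 at weeks 2 and 4, against 3.63 and 4.83 in uninjured libraries, so it had no call at day 3. The member 155 kb from Bckdhb, which encodes a subunit of a branched-chain keto acid dehydrogenase, reached 73.3 and 65.02 at week 4, against 5.18 and 4.83 in uninjured libraries. A member 57.3 kb from Ifne, which encodes interferon epsilon, stood at 81.1 and 77.1 at week 2, against 6.96 and 2.502 in uninjured libraries, but its week 4 libraries lay far apart at 37.6 and 73.9.

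The largest downward shifts came at other loci. The member at chr5:73919118-73920949, 77.5 kb from Usp46, which encodes a deubiquitinase, stood at 71.6 and 68.3 in uninjured libraries, 12.7 and 0.731 at day 3, 7.60 and 0.224 at day 7, 15.5 and 30.2 at week 2 and 23.8 and 21.9 at week 4. No library after MI overlapped the uninjured pair. The member 106 kb from H2afy, which encodes the histone variant macroH2A1, stood at 2.69 and 5.59 at week 4, against 65.6 and 63.1 in uninjured libraries. A member 45.5 kb from Ncoa1, which encodes a coactivator of nuclear receptors, stood at 4.24 and 10.6 at week 2, against 65.6 and 73.4 in uninjured libraries.

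Recovery differed among the members that were down. The member 64.3 kb from Tprg stood at 4.49 and 0.483 at day 3 and at 62.6 and 45.2 at week 4, against 64.8 and 61.3 in uninjured libraries, and was called down at day 3 and day 7 alone. That 96.5 kb from Tm2d1 did likewise, with 5.30 and 4.70 at day 3 and 66.5 and 70.8 at week 4, against 66.0 and 64.9 in uninjured libraries. The member 24.9 kb from Nfkbia, which encodes an inhibitor of NF-kappa-B, moved later: it stood at 54.5 and 64.9 in uninjured libraries, 49.0 and 48.9 at day 3, 12.2 and 11.6 at day 7, 0.0128 and 3.34 at week 2 and 6.07 and 7.73 at week 4. Its day 3 call was lost without uninjured replicate 2, where the shift was -5.64 points. The member 177 kb from Gm38199 was lowest at week 4 (4.23 and 3.68, against 61.6 and 75.4 in uninjured libraries), and its day 3 call was also lost without uninjured replicate 2, at -8.12 points. Members near Cenpw, Gm826, Leprot and Tslp were down at all 4 times.

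**Figure D4:**
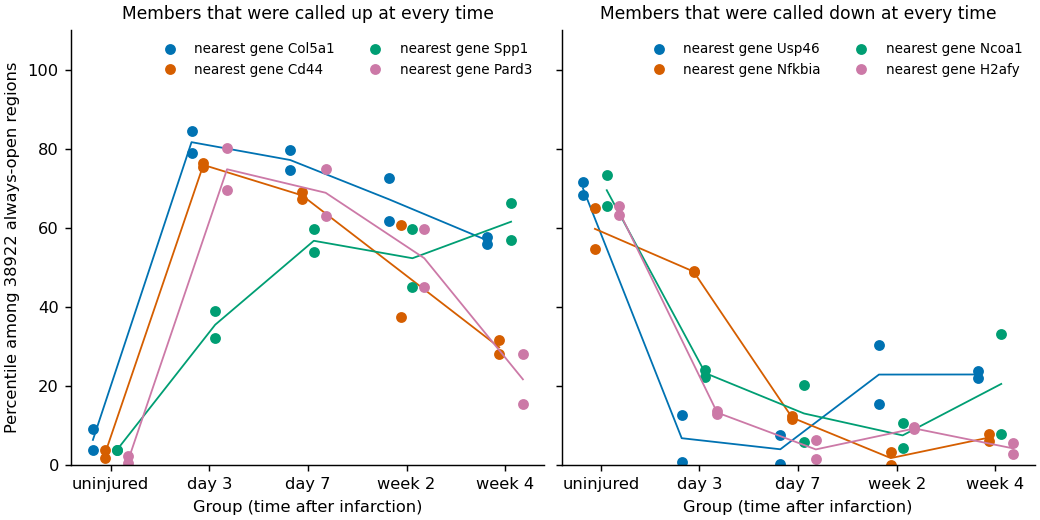
Percentile of height among the 38922 always-open regions (y axis) for 8 members in uninjured hearts and at each time after MI (x axis), with 1 point per library and lines through the group means. Members near Col5a1, Cd44, Spp1 and Pard3 (left) start below 10 and those near Usp46, Nfkbia, Ncoa1 and H2afy (right) start above 50 in uninjured libraries.

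A member near Cxcl12, which encodes a chemokine that retains CXCR4-positive cells, changed direction. It lay at chr6:117266569-117269064, 85.2 kb from the gene, and stood at 51.9 and 44.3 in uninjured libraries, 79.8 and 82.9 at day 3, 36.7 and 31.3 at day 7, 24.8 and 19.2 at week 2 and 6.07 and 0.925 at week 4. It was up at day 3 and down at each later time, with the lowest values at week 4. Cxcl12 RNA was 1114 and 765 CPM at day 3, against 357 and 422 CPM in uninjured libraries (log2 fold change 1.27 ± 0.25 SE, edgeR quasi-likelihood test, Benjamini-Hochberg adjusted p = 0.00678). It passed at no later time, with 234 and 265 CPM at week 4.

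Neighbouring members of one gene could move in opposite directions. Of the 3789 genes that were nearest to a member, 1895 had 1 member and 86 had 10 or more, which together held 1099 members. The genes in this and the next paragraph were partly picked after their values were seen, and their counts stand against the shares of all members, 19.9% up and 27.0% down at day 3 and 22.4% and 24.9% at week 4. Of 6 members nearest to Col5a1, 3 were up at day 3 and 2 down. The one 56.2 kb away, next to the member shown above, stood at 43.0 and 46.4 at day 3, against 71.9 and 68.6 in uninjured libraries. Of 9 members nearest to Tnc, which encodes tenascin-C, 6 were up at day 3 and 2 down, whereas at week 4 there were 2 of each. The nearest of them, 10.7 kb away, stood at 52.7 and 56.1 at day 3, against 6.96 and 4.83 in uninjured libraries, and at 6.07 and 2.07 at week 4. All 3 members nearest to Cd44 were up at day 3 and at day 7, and 1 was still up at week 4. Of 5 members nearest to Sfrp2, which encodes a secreted Wnt modulator, 4 were up at week 2 and 1 down. Klf6, a zinc finger gene induced by stress, had 15 members, of which 7 were up and 1 down at day 3. Myc, a growth-promoting transcription factor gene, had 18, of which 7 were up and 1 down at day 3 and 3 up and 5 down at week 4, shares near those of all members at that later time.

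In other gene neighbourhoods more members were down than up. Smoc2, which encodes a matricellular calcium-binding protein, had 6 members, of which 4 were down at day 3, day 7 and week 2, 3 were down at week 4, and none was up. Klf4, which encodes a zinc finger factor tied to cell quiescence, had 16, of which 10 were down and none up at day 3 and at day 7. Of 15 members nearest to Gas1, which encodes a growth arrest protein and Hedgehog co-receptor, 7 were down and 3 up at day 3. The most marked, 92.9 kb away, stood at 11.8 and 7.79 at day 3, against 63.5 and 70.0 in uninjured libraries. Around Cd83, which encodes a surface protein of activated immune cells, 12 of 17 members were down at week 4 and none up. Zeb2, which encodes a repressor known from the epithelial to mesenchymal transition, had 10 of 20 down and 1 up at week 4.

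Members on chromosome X behaved unlike the autosomal ones. Of the 320 members there, 5.94% were up and 24.4% down at day 3, 51.9% and 17.2% at day 7, 37.2% and 14.1% at week 2 and 43.8% and 12.5% at week 4. On autosomes the shares were 20.4% and 27.1%, 25.7% and 29.8%, 22.3% and 26.5%, and 21.6% and 25.4% at the same times. The median percentile of X members was 28.6 and 37.0 in uninjured libraries, 28.5 and 24.7 at day 3, 44.9 and 48.8 at day 7, 36.3 and 44.1 at week 2 and 41.6 and 49.1 at week 4. Peaks at the Y genes Eif2s3y, Ddx3y and Kdm5d stood in 1 library of each group after MI and in neither uninjured library. The Y gene Uty differed from them, with peaks of 3.06 to 21.9 fold enrichment in every library but uninjured replicate 1, and each list held 19 to 82 peaks on Y. Their part in the result was not tested. Counts on autosomes alone differed little from those of all members, with 2230 up and 2583 down at day 7.

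The member of widest range lay on X. It was at chrX:75738675-75741134 over 4933407K13Rik, the mouse Dxz4 locus, a tandem repeat on the X chromosome known for CTCF binding on the inactive copy, and 44.5 kb from Pls3. It stood at 78.3 and 76.1 in uninjured libraries, 58.6 and 82.0 at day 3, 88.9 and 1.57 at day 7, 2.85 and 95.9 at week 2 and 83.8 and 3.68 at week 4. In each group after MI the lower value was that of the library with peaks at the 3 Y genes named above, and the uninjured pair, which had none, was high. Groups overlapped at all times, so it had no call.

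The members named here as farthest from genes had like courses. The farthest lay 1931 kb from Pik3c3, at chr18:28340635-28342177, and stood at 27.1 and 38.8 in uninjured libraries, 42.4 and 16.4 at day 3, 78.6 and 76.7 at day 7, 40.3 and 60.9 at week 2 and 54.6 and 70.5 at week 4. Day 7 was highest, and at week 2 the call was lost without week 2 replicate 2, where the shift was 7.36 points. Those 1856 kb from Dsel and 1777 kb from Nudt12 were also up at day 7, week 2 and week 4 and highest at day 7. A nearer member, 210 kb from Gm49559, was called up at the same times, so these calls were not particular to the farthest members. Over the 10 libraries, 166 members had a Pearson correlation over 0.97 with the farthest one. Their median distance from a gene was 117152 bp, against 47267 bp for all members, and 18.7% of them lay on X, against 3.56% of all members. The 10 points share libraries and their depth, so this likeness is a description. How many members correlate as well with a member nearer to genes was not counted.

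MicroRNA hairpins inside members lay in regions of different courses. The miR-17 cluster, known as an oncogenic cluster under Myc, lay in the member chr14:115038844-115044963, with percentiles of 73.1 and 71.9 in uninjured libraries, 76.5 and 76.2 at day 3, 82.9 and 79.1 at day 7, 88.2 and 86.1 at week 2 and 72.1 and 84.1 at week 4. It was up at week 2 alone, since the week 4 pair lay apart. The let-7 pair, known for holding back growth, lay in chr15:85696798-85714454 with 87.1 and 80.8 in uninjured libraries, 78.1 and 69.02 at day 3, 71.9 and 75.2 at day 7, 69.9 and 74.6 at week 2 and 79.95 and 80.0 at week 4. It was down at day 3, day 7 and week 2. The miR-29 pair, known in the heart for lowering collagen messages, lay in chr6:31056644-31063632 at low percentiles throughout. It had 12.2 and 28.2 at day 7 and 15.3 and 31.6 at week 4, against 3.63 and 6.11 in uninjured libraries, and was up at these times.

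Single hairpins followed suit without a common direction. The member with miR-148a stood at 79.4 and 78.2 at day 3, against 56.4 and 56.1 in uninjured libraries, and was up through week 2. The member with miR-193b stood at 64.9 and 53.0 at day 7, against 47.4 and 39.7 in uninjured libraries, and was up at day 7 and week 2. The member with miR-193a, which shares that seed, stood at 86.4 to 94.0 in all libraries with no call. A member with miR-100 was down at day 7 and week 4, and that with miR-125b, in the same host gene, had no call. A long region such as that of let-7 holds several peaks, so its highest peak need not be the promoter of the hairpin.

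The regions of the transcript starts shown above moved as follows. The member with LOC115487176, 132 kb from Uaca, stood at 18.6 and 11.9 in uninjured libraries, 61.1 and 65.2 at day 3, 63.4 and 75.5 at day 7, 62.1 and 54.6 at week 2 and 50.7 and 63.0 at week 4. The member with Gm32011, 62.1 kb from Ctnnd2, stood at 80.8 and 74.9 at day 3, against 28.6 and 40.5 in uninjured libraries, and at 46.6 to 60.5 later. The first stayed high through week 4, and the second was highest at day 3. The member with Gm36169, 41.0 kb from Mis18a, stood at 24.98 and 16.4 at day 3 and at 2.69 and 5.59 at week 4, against 47.4 and 58.1 in uninjured libraries. The member with Gm30782, 18.1 kb from Atoh8, stood at 12.7 and 6.17 at day 3 and at 45.01 and 25.99 at week 4, against 55.8 and 60.2 in uninjured libraries. That with Snhg5 stood at 92.2 to 95.9 throughout.

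Over all 570 members with a promoter window, the shares called differed from motif to motif. Of 75 with an AP-1 match, 21 (28%) were up and 15 (20%) down at day 3, and of 495 without one 20.8% were up and 22.02% down. This difference at day 3 was not kept at day 7, with 18.7% up with a match and 18.99% without. The down shares at day 7 were 25.3% with a match and 25.5% without. At week 4, 18.7% with a match were up and 25.3% down, against 14.5% and 18.6% without. Of 146 with the E-box, 13.0% were up and 29.5% down at day 3, and of 424 without it 24.8% were up and 19.1% down. At week 4, 12.3% with the E-box were up and 19.9% down, against 16.04% and 19.3% without. Of 125 with a TEAD match, 27.2%, 24%, 22.4% and 20.8% were up at the 4 times. Of 445 without one, 20.2%, 17.5%, 15.1% and 13.5% were up. The down shares for TEAD were 20%, 24%, 16% and 17.6% with a match. Without one they were 22.2%, 25.8%, 22.9% and 20%. No test was made of these shares.

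Regions on both sides of the distance limit are given by their values. Just outside it lay the members 10001 bp from Sh3gl3, 10007 bp from Slc25a28, 10012 bp from Slc38a2 and 10030 bp from Epm2aip1, with mean percentiles of 43.3, 23.3, 43.0 and 48.9. The call at day 3 of the member near Sh3gl3 was lost without uninjured replicate 1 (5.10 points) or without day 3 replicate 2 (9.05 points). Just within it lay regions 10000 bp from Il5, 9990 bp from Apod, 9989 bp from Gm47196 and 9987 bp from S100a11, with mean percentiles of 66.2, 50.4, 88.8 and 54.2, all above those of the 4 members. Regions this few show no step in height at the limit. Against all 3122 always-open regions 1 to 10 kb from a gene, the height ratio of members was 1.02, as given above.

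RNA was measured for 2649 of the 3789 nearest genes that passed the filter on low counts, and the shares that changed are given beside those of all genes. At day 3, 203 were higher (7.66%) and 212 lower (8.003%), where 7.39% and 4.4% of all 14968 genes tested were. At day 7, 169 were higher (6.38%) and 136 lower (5.13%), against 4.39% and 2.76% of all genes. At week 2, 86 were higher (3.25%) and 21 lower (0.793%), against 1.44% and 0.454% of all, and at week 4, 93 (3.51%) and 29 (1.09%), against 1.85% and 0.474% of all. Only the higher share at day 3 was near its background. The median log2 fold change of the nearest genes was -0.21, -0.07, 0.00 and -0.08 at the 4 times, against -0.02, 0, -0.01 and 0 for all genes.

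These RNA counts rest on few libraries. Counts with 1 library left out were not set beside those of all genes in the same fit, so they have no background. Without 1 library, the day 3 counts were 98 higher and 67 lower (without day 3 replicate 2), 121 and 116 (uninjured replicate 1) or 92 and 102 (uninjured replicate 2). At day 7 they were 68 and 27 (without day 7 replicate 2), 107 and 68 (uninjured replicate 1) or 67 and 41 (uninjured replicate 2). At week 2 there were 38 higher and 10 lower without uninjured replicate 2, 41 lower without week 2 replicate 1 and 5 lower without week 2 replicate 2. At week 4 they were 50 and 7 (week 4 replicate 1), 48 and 7 (week 4 replicate 2), 59 and 19 (uninjured replicate 1) or 36 and 6 (uninjured replicate 2), and 46 lower without week 2 replicate 2. The macrophage sum above moved with these comparisons, with 8 of its 10 markers higher at day 3, 9 at day 7, 3 at week 2 and 2 at week 4, and its part in the result was not tested.

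RNA calls were also counted by the call of the member. Of 973 tested genes beside members up at day 3, 9.97% were higher and 6.78% lower, and of 1077 beside members down at day 3, 5.94% and 10.9%. At day 7 the shares were 9.12% higher and 4.28% lower beside members that were up, and 5.68% and 7.23% beside members that were down. At week 2 they were 5.80% and 0.311% against 2.27% and 1.23%, and at week 4 5.83% and 0.648% against 2.17% and 1.80%. Beside members with neither call, 7.33% of genes were higher and 8.01% lower at day 3 and 6.19% and 4.63% at day 7. For these it was 2.98% and 0.852% at week 2 and 3.82% and 0.889% at week 4. A gene with members of several kinds counts in each, and no test of the differences was made.

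Several nearest genes that rose encode matrix and adhesion proteins. Spp1 RNA was 33.6 and 22.02 CPM in uninjured libraries, 1000 and 1689 at day 3, 579 and 670 at day 7, 267 and 210 at week 2 and 220 and 214 at week 4. All libraries after MI were above both uninjured ones and highest at day 3, when its distal member had not reached its top percentile (log2 fold change 5.60 ± 0.34 SE at day 3 and 2.96 ± 0.30 at week 4, edgeR quasi-likelihood test, Benjamini-Hochberg adjusted p = 3.1e-06 and 0.000387). Tnc RNA was 7.14 and 1.55 CPM in uninjured libraries, 850 and 1227 at day 3, 247 and 265 at day 7, 89.4 and 72.9 at week 2 and 71.8 and 78.6 at week 4 (log2 fold change 7.90 ± 0.64 SE at day 3, same test, adjusted p = 0.00015). It too was highest at day 3 and stayed above the uninjured pair. Cd44 RNA was 205 and 229 CPM at day 3, against 49.7 and 51.6 in uninjured libraries (log2 fold change 2.10 ± 0.22 SE, adjusted p = 0.000154), and passed at day 7 but not at week 2 or week 4. Col5a1 RNA was 339 and 465 CPM at day 7, against 87.6 and 61.0 in uninjured libraries (log2 fold change 2.44 ± 0.26 SE, adjusted p = 0.000205). Its calls at week 2 and week 4 were lost without uninjured replicate 2, where adjusted p was 0.328 and 0.436. The week 2 call was also lost without week 2 replicate 2 (0.172), and the week 4 call without week 4 replicate 1 (0.0981) or week 4 replicate 2 (0.240).

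Other nearest genes with large increases follow. Sfrp2 RNA was 84.4 and 132 CPM in uninjured libraries, 793 and 472 at day 3, 2049 and 1998 at day 7, 4513 and 3213 at week 2 and 2185 and 2911 at week 4. It was highest at week 2, when 4 of its 5 members were up (log2 fold change 5.16 ± 0.36 SE, edgeR quasi-likelihood test, Benjamini-Hochberg adjusted p = 1.4e-05). Ccl9, a chemokine gene, had 137 and 155 CPM at day 3, against 0.959 and 0.214 in uninjured libraries, and Ccn4, a matricellular gene, 290 and 360 CPM at day 7, against 2.66 and 6.05. Ddah1, which encodes an enzyme that clears an inhibitor of nitric oxide synthase, had 755 and 903 CPM at day 7, against 17.96 and 9.06 in uninjured libraries. These 3 passed at all 4 times and without any single library. C1qtnf3, a secreted C1q-related gene, had 1093 and 1256 CPM at day 7, against 8.69 and 6.59 in uninjured libraries (log2 fold change 7.26 ± 0.65 SE, adjusted p = 0.000268).

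RNA and regions did not always go the same way. Ltbp2, which encodes a microfibril protein of the latent TGF-beta binding family, had 16.7 and 9.27 CPM in uninjured libraries, 113 and 141 at day 3, 282 and 417 at day 7, 245 and 259 at week 2 and 473 and 302 at week 4. It was higher at all times, with a log2 fold change of 4.899 ± 0.36 SE at week 4 (edgeR quasi-likelihood test, Benjamini-Hochberg adjusted p = 3.2e-05). Its 1 member, 16.8 kb away, was down at all 4 times, with 13.6 and 7.79 at day 3, against 44.8 and 45.7 in uninjured libraries. Enpp2, which encodes autotaxin, had 112 and 33.9 CPM at day 3, against 550 and 585 CPM in uninjured libraries (log2 fold change -2.96 ± 0.46 SE, adjusted p = 0.00279), while both its members were up at day 3. The one 28.3 kb away stood at 76.5 and 78.0 at day 3, against 49.1 and 55.5 in uninjured libraries.

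Some genes with more members down than up had less RNA. Gas1 RNA was 70.5 and 47.9 CPM at day 3, against 198 and 176 in uninjured libraries (log2 fold change -1.66 ± 0.26 SE, edgeR quasi-likelihood test, Benjamini-Hochberg adjusted p = 0.00165), and 313 and 265 CPM at week 4, which did not pass. Klf4 RNA was 182 and 125 CPM at day 3, against 370 and 660 in uninjured libraries (log2 fold change -1.75 ± 0.35 SE, adjusted p = 0.00757), and that call was lost without day 3 replicate 2, where adjusted p was 0.0805. Cd83 RNA was 23.9 and 27.4 CPM at week 4, against 149 and 173 in uninjured libraries (log2 fold change -2.65 ± 0.39 SE, adjusted p = 0.00397). Smoc2 RNA was 436 and 235 CPM at day 7, against 2550 and 3889 in uninjured libraries (log2 fold change -3.26 ± 0.56 SE, adjusted p = 0.00953). That call was lost without day 7 replicate 2 (adjusted p = 0.123), uninjured replicate 1 (0.0642) or uninjured replicate 2 (0.141). Of the genes with many members, Myc (18), Klf6 (15), Zeb2 (20) and Tle3 (25) passed at no time.

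**Figure D5:**
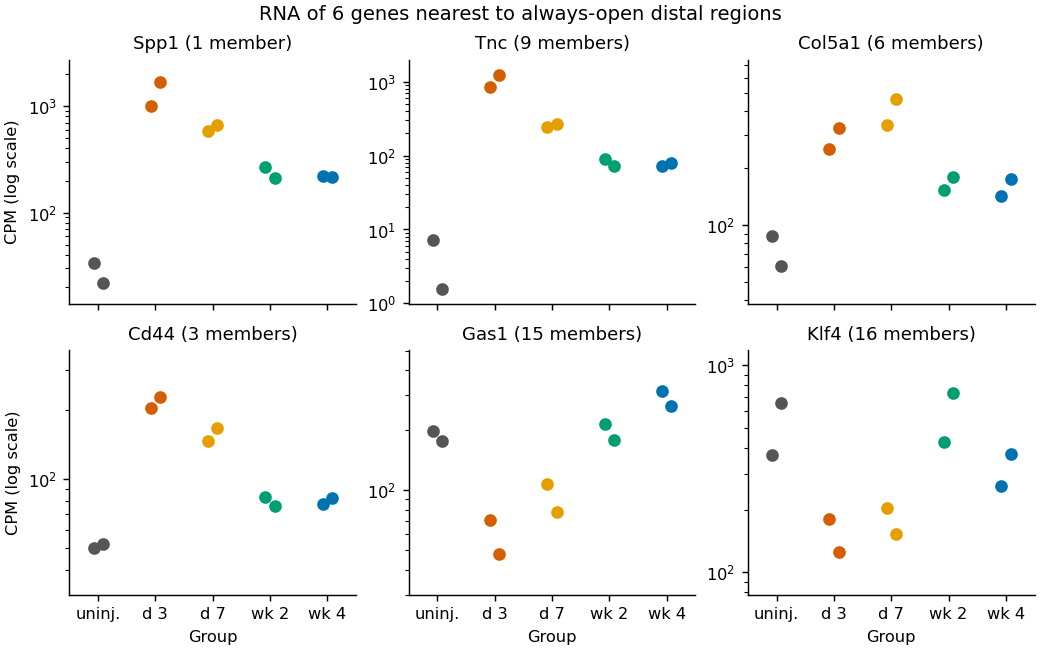
RNA of 6 genes nearest to members in CPM (y axis, log scale, each panel with its own range) in uninjured hearts and at each time after MI (x axis), with 1 point per library. Spp1, Tnc, Col5a1 and Cd44 lie above the uninjured pair in all libraries after MI, and Gas1 and Klf4 below it at day 3 and day 7.

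Other nearest genes fell at day 3. Igfbp3, which encodes a binding protein of insulin-like growth factors, had 16.9 and 3.71 CPM at day 3, against 186 and 247 in uninjured libraries (log2 fold change -4.39 ± 0.67 SE, edgeR quasi-likelihood test, Benjamini-Hochberg adjusted p = 0.00343). Gpc3, a glypican gene, had 8.25 and 5.26 CPM, against 98.5 and 86.2 (log2 fold change -3.77 ± 0.38 SE, adjusted p = 0.000146). Camk2n1, which encodes an inhibitor of CaM kinase II, had 12.1 and 3.49 CPM, against 89.7 and 90.1 (log2 fold change -3.53 ± 0.52 SE, adjusted p = 0.00137). Both libraries of day 3 lay below both uninjured libraries for each of them. Their regions did not follow at day 3 where the calls were looked up. The 1 member nearest to Gpc3 was up at day 3. The 1 member nearest to Igfbp3 had no call at day 3 and was down at each later time. Icosl, which encodes a ligand of the T cell receptor ICOS, passed at all 4 times, and at week 2 it had 7.60 and 6.19 CPM, against 106 and 107 in uninjured libraries, a week 2 call lost without week 2 replicate 2 (edgeR, adjusted p = 0.0583). Its day 7 call was lost without day 7 replicate 2 (0.0508), and its week 4 call without week 4 replicate 2 (0.150), uninjured replicate 1 (0.0628) or uninjured replicate 2 (0.107).

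Genes of factors that act at distal elements are given by list. Of all genes tested, 7.39% were higher and 4.4% lower at day 3 and 4.39% and 2.76% at day 7. At week 2 these shares were 1.44% and 0.454%, and at week 4 1.85% and 0.474%. The lists are short, and none was tested against these shares. None of 15 genes of CTCF and cohesin passed at any time in edgeR's quasi-likelihood test (at an unadjusted p under 0.05 there were 1, 3, 0 and 3 at the 4 times, and DESeq2 called 1, 1, 0 and 0), and Ctcf RNA was 34.1 and 34.97 CPM at day 3, against 34.7 and 37.1 in uninjured libraries. Of 10 AP-1 genes, 1 was higher and 3 lower at day 3, where DESeq2 called 5. None passed later (unadjusted p under 0.05 for 3, 2 and 1 at day 7, week 2 and week 4, and 2, 1 and 1 calls by DESeq2). Fosl1 had 25.4 and 21.8 CPM at day 3, against 0.426 and 1.77 in uninjured libraries (log2 fold change 4.42 ± 0.97 SE, Benjamini-Hochberg adjusted p = 0.0113), a call lost without uninjured replicate 1 (adjusted p = 0.0934). Jun had 796 and 538 CPM at day 3, against 2179 and 2734 in uninjured libraries (log2 fold change -1.88 ± 0.34 SE, adjusted p = 0.00417), and Jun itself was nearest to 9 members. The lower calls of Fos and Atf3 were lost without day 3 replicate 2 (adjusted p = 0.281 and 0.132) or uninjured replicate 2 (0.189 and 0.120).

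Genes of enhancer cofactors and of the TEAD pathway were counted in the same way. At day 3, 7.39% of all genes tested were higher and 4.4% lower, and neither list was tested against these shares. Of 15 remodelling and enhancer cofactor genes, Crebbp and Kmt2c, which encode an acetyltransferase and a methyltransferase of enhancer histones, were lower at day 3 and none passed later (unadjusted p under 0.05 for 3, 0 and 2 at day 7, week 2 and week 4, and 2, 0 and 0 calls by DESeq2). Both calls were lost without day 3 replicate 2 (edgeR, adjusted p = 0.133 and 0.112), and that of Kmt2c also without uninjured replicate 2 (0.0640). Of 6 TEAD pathway genes, Tead1 was higher at day 3 and day 7 and Wwtr1, which encodes the coactivator TAZ, at week 2 and week 4. Wwtr1 had 88.8 and 140 CPM at week 4, against 48.8 and 46.9 in uninjured libraries (log2 fold change 1.26 ± 0.27 SE, edgeR quasi-likelihood test, Benjamini-Hochberg adjusted p = 0.0287). All 4 of these calls were lost when uninjured replicate 1 or uninjured replicate 2 was left out (edgeR, lowest adjusted p 0.115). Without week 4 replicate 2 the week 4 value for Wwtr1 was 0.3002.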

How the data were processed

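ATAC-seq and RNA-seq were each made from 2 libraries of 5 groups of sorted cardiac fibroblasts. Members and gene lists were chosen with earlier results of these data known. The deposited peak lists give fold enrichment, −log10 p and q, and a score derived from q, as the authors' peak caller wrote them, 1 list per library. Expected counts in the deposited gene table, made by the authors, were rounded to whole numbers here. Per the submitters' processing notes, the tools were Bowtie2 2.3, MACS2, STAR 2.5.3a, DESeq2, FastQC and Trim Galore 0.6 and the build mm10, with no roles given. The sources used here do not give peak thresholds, the counter or strand use.

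RNA was tested with edgeR 4.0.16 (quasi-likelihood, TMM scaling, filterByExpr, all 5 groups, 5 residual degrees of freedom, Benjamini-Hochberg threshold 0.05), in R 4.3.3, with DESeq2 1.42.0 as the alternative. Peak comparisons used exact permutation tests over libraries (Python 3.11.15, scipy 1.17.1). Merging, tests and calls were tested on simulated data. Nearest genes were measured from the 25746 gene spans of the count table, and 25635 of their IDs matched the name table. RefSeq genes, promoters and microRNAs are those of GRCm38.p6. No genome sequence was used, so motifs were read in RefSeq promoters inside members. Named regions were the extremes in height, distance, range, length and shift at each time. Named genes were those nearest to named regions, those with the largest changes past the threshold, the lists, and genes with many members, the last picked after their values were seen. All 10 count columns were used.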

Additional observations from a re-analysis of the deposited data

Results flagged for a closer look

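Peaks at 3 genes of chromosome Y, which lies outside the chromosomes used for the regions, stood in 1 ATAC-seq library of each group after MI and in neither uninjured library. At Eif2s3y, a translation factor gene, fold enrichment was 11.04 in day 3 replicate 1, 12.2 in day 7 replicate 2, 17.3 in week 2 replicate 1 and 14.1 in week 4 replicate 2. At Ddx3y, an RNA helicase gene, it was 7.44, 12.4, 19.3 and 14.4 in the same libraries. At Kdm5d, a histone demethylase gene, it was 3.36, 4.22, 6.31 and 5.04. The other 6 ATAC-seq libraries had no peak at these genes. Uty, another Y gene, had a peak in 9 of the 10 libraries, with fold enrichments of 10.8, 17.6, 21.9 and 15.6 in those 4, 3.06, 12.1, 10.4 and 6.40 in the other library of each group after MI, and 3.604 in uninjured replicate 2. Each list held 19 to 82 peaks on Y. The member at the Dxz4 locus on X stood at percentiles of 58.6, 1.57, 2.85 and 3.68 in the same 4 libraries and at 76.1 or higher in the other 6.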

How the results depend on the processing

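Membership depended on the definition: 4347 regions lay more than 50 kb from genes, joining summits within 100 bp gave 4134, and asking peaks to cover 50% of the region in every list gave 3646. The height against near regions turned round without gene ends, at 1.08, inside genes alone, at 1.08, and 1 to 10 kb from genes, at 1.02; the classes compared differ by construction. Leaving out 1 library kept that ratio at 0.678 to 0.689, the width ratio at 0.757 to 0.765 and the likeness difference at 0.166 to 0.213. With 20 percentile points in place of 10, the counts up and down were 944 and 1194 at day 3, 1619 and 1357 at day 7, 1091 and 1146 at week 2 and 1204 and 1064 at week 4. Ranks by −log10 q are no separate check, since within each list they order the peaks as fold enrichment does. The E-box share was 20.98% in members more than 50 kb away.

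DESeq2 called 350 nearest genes lower at day 3, 250 lower at day 7, 157 higher and 87 lower at week 2 and 158 higher and 77 lower at week 4. With no filter on low counts these were 371, 264, 155 and 88, and 184 and 87. For these and the other fits of this paragraph, the shares of all genes were not taken, so the counts have no background. Leaving out 1 library gave 92 to 232 higher and 67 to 265 lower at day 3, 67 to 194 and 27 to 173 at day 7, 38 to 92 and 5 to 41 at week 2, and 36 to 105 and 6 to 46 at week 4; the cause was not tested. Of 98 calls of named genes, 98 held with DESeq2, 97 with RLE scaling and 58 without uninjured replicate 2, and 0 reversed. RNA showed no shift shared by replicate number between groups (correlations of deviations -0.0181 to 0.0288). This cannot show whether libraries were handled in pairs. A replicate block gave 204 higher and 216 lower at day 3 and 168 and 148 at day 7. It gave 86 and 27 at week 2 and 93 and 34 at week 4. Windows around summits were not run, since no genome was used here.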
